A study of Mus musculus with 34 samples.

Results

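The arrays described here measured what added interleukin-10 (IL-10) did within 45 min of lipopolysaccharide (LPS) treatment in mouse bone-marrow-derived macrophages of 3 genotypes. They are the 11 arrays, of 34 in the series, whose titles name LPS at 100 ng/ml for 45 min with or without IL-10 at 10 ng/ml: LPS plus IL-10 in IL-10-/- (2 arrays), IL-6-/- (2 arrays) and wild type (WT, 2 arrays), and LPS alone in IL-10-/- (2 arrays), IL-6-/- (1 array) and WT (2 arrays). All the cells had been grown from marrow for 7 days in CSF-1, the macrophage growth factor, and all had received LPS, so LPS alone is the control throughout. The treatment field of these arrays lists LPS and the time without IL-10, and the addition of IL-10 is stated in the titles only. The labels give neither strain, sex nor age of the mice, nor which part of the Il10 or Il6 gene was deleted, and they do not say whether replicate cultures came from separate mice, so the p-values below measure only the spread between these arrays. An array titled as LPS-treated IL-6-/- replicate 1 carries a treatment field that gives another time, and another LPS array has no genotype in its title; both were left out. For the single IL-6-/- LPS array the fits borrow the spread of the other groups.

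IL-10 binds a receptor of which IL-10RA is the ligand-specific chain and IL-10RB a shared chain, and the kinases JAK1 and TYK2 attached to it phosphorylate the transcription factor STAT3. STAT3 in turn raises a set of genes that lower the output of inflammatory cytokines by macrophages exposed to LPS, a component of bacterial cell walls sensed by TLR4. IL-6 also acts through STAT3, but its receptor chain gp130 is held in check by SOCS3, whereas the IL-10 receptor is not. Macrophages make IL-10 and IL-6 themselves after LPS, and the knockouts remove the one or the other cytokine while leaving the receptors in place.

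Each array reports the signal of 12488 probe sets, a linear fluorescence intensity that the authors had scaled to a trimmed mean of 500. A total of 8224 probe sets reached a signal of 200 on at least 2 arrays of the series and were tested, standing for 6070 genes. The 11 arrays correlated at 0.902 to 0.96 on the log2 scale, and arrays of the same group at 0.932 to 0.958. All 12 macrophage markers checked lay over a signal of 200 on all 11 arrays, with their summed signal between 161600 and 191900 with IL-10 and between 159200 and 201800 with LPS alone. Of the 6 neutrophil, 4 lymphocyte and 5 erythroid and mast cell markers on the array, 0 reached 200 on all 11 arrays, while 4 of 6 stromal and 2 of 4 dendritic markers did. The stromal markers summed to between 3887 and 8294 with IL-10 and to between 4485 and 7026 with LPS alone; no marker of any of these types passed the test below. In these bulk samples, fewer cells of a type and less RNA per cell cannot be told apart.

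The response common to the genotypes was the difference between LPS plus IL-10 and LPS alone on log2(signal + 50), fitted by limma with genotype as a block. Log2 changes are given with their standard error over the 11 arrays (6 with IL-10, 5 without). A fold is the same change on a linear scale, which understates the change of genes with a low signal. A gene passed at a Benjamini-Hochberg adjusted p under 0.05 over all 8224 probe sets. Of these, 121 passed, which is 1.47% of those tested: 75 rose (0.912%) and 46 fell (0.559%), corresponding to 64 and 36 genes with a single symbol. The change exceeded 1 on the log2 scale in 41 of the risers and lay below -1 in 16 of the fallers.

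The genotypes agreed in direction for all 121 of these probe sets, against 29% of all probe sets tested. In 117 of the 121, every array with IL-10 lay on the same side of every LPS array of its own genotype (74 above, 43 below). Over all probe sets tested, 3.57% showed such separation (1.87% above, 1.70% below). The test of the common response selects probe sets whose genotypes agree, so these 2 counts describe the set and support nothing further. The median absolute log2 change over the 121 was 1.07 in IL-10-/-, 1.02 in IL-6-/- and 0.846 in WT, against 0.182, 0.2 and 0.198 over all probe sets tested.

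**Figure D1:**
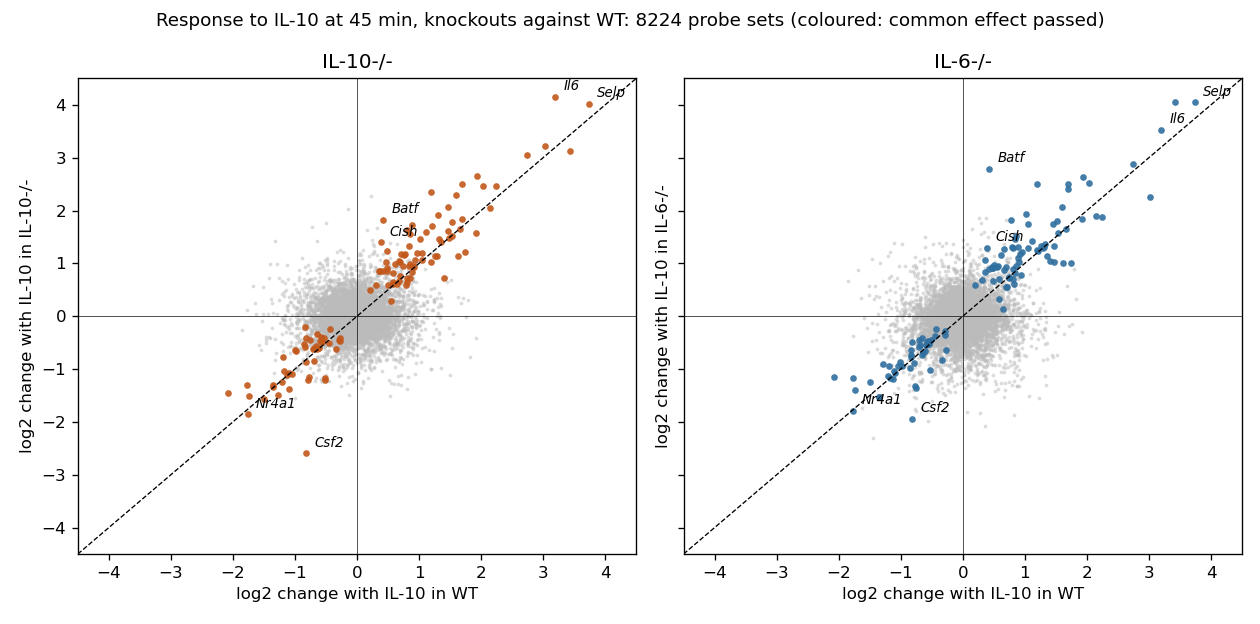
Log2 change with IL-10 at 45 min in IL-10-/- (left, vertical axis) and IL-6-/- (right, vertical axis) against the change in WT (horizontal axes), 1 point per probe set; coloured points passed the test of the common response and the dashed line marks equal change. The 121 coloured points have the same sign in all 3 genotypes, with Csf2 at -2.59 in IL-10-/- and -0.81 in WT, and Batf at 2.79 in IL-6-/- and 0.43 in WT, among those farthest from the line.

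With 50 added before the logarithm, the largest rise was that of Selp, which encodes P-selectin, an adhesion molecule better known from platelets and endothelium. The Selp signal was 946.5 and 1161 with IL-10 against 15.8 and 19.3 with LPS alone in IL-10-/-, 1280 and 1156 against 26.7 in IL-6-/-, and 1110 and 979.2 against 26.7 and 37.3 in WT. All 6 arrays with IL-10 lay between 946.5 and 1280, and the 5 LPS arrays lay between 15.8 and 37.3, under the signal of 200 that a probe set had to reach to be tested. The change was 3.92 ± 0.14 on the log2 scale (15.2-fold, adjusted p = 1.61e-09), and it depends on the constant added before the logarithm: with 10 in place of 50 it came to 31.8-fold and with 200 to 5.7-fold. With 200 its log2 change of 2.51 was below those of Il6 (3.11), Gadd45g (3.06), Map3k8 (2.57) and Saa3 (2.54).

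Il6 itself was the second of these genes by size. In IL-10-/-, Il6 measured 4506 and 3648 with IL-10 and 175.6 and 185.3 without it; in IL-6-/- it measured 8400 and 6947 with and 617.8 without, and in WT 2679 and 2126 with and 209 and 222.5 without. The groups did not overlap in any genotype, and the common change was 3.64 ± 0.16 on the log2 scale (12.5-fold, adjusted p = 4.34e-09). The probe set gave signal in IL-6-/- as well, so it does not check the deletion, and in those cells it measures transcript from the locus. Its highest values, with and without IL-10, were those of IL-6-/-. Il10, by contrast, gave a common log2 change of 0.16 ± 0.13 that did not pass (adjusted p = 1). LPS plus IL-10 gave Il10 signals of 10596 and 8396 in IL-10-/-, against 6512 and 5858 with LPS alone, of 1638 and 1614 against 2006 in IL-6-/-, and of 2419 and 2699 against 2412 and 2634 in WT. It was detected in IL-10-/- too, at a higher signal than in WT or IL-6-/-, so its probe set does not check that deletion either.

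Gadd45g, a stress-induced regulator of growth arrest, and Map3k8, the kinase TPL2 that carries the TLR4 signal to ERK, also rose, with Saa3 between them by size. For Gadd45g, the signals in IL-10-/- were 4567 and 4265 with IL-10 and 475.3 and 449.7 with LPS alone, those in IL-6-/- 4930 and 4528 with IL-10 and 236.4 with LPS alone, and those in WT 4571 and 4713 with IL-10 and 554.9 and 265.6 with LPS alone. The 6 arrays with IL-10 spanned 4265 to 4930 over the 3 genotypes. The Map3k8 signal was 4151 and 3822 with IL-10 against 517.2 and 371.1 with LPS alone in IL-10-/-, 4548 and 3616 against 506.1 in IL-6-/-, and 3332 and 3050 against 488.2 and 386.5 in WT. In both genes the lowest array with IL-10 exceeded the highest LPS array several times over, with changes of 3.47 ± 0.17 on the log2 scale (11.1-fold, adjusted p = 1.24e-08) for Gadd45g and 2.89 ± 0.12 on the log2 scale (7.41-fold, adjusted p = 4.14e-09) for Map3k8. Saa3, an acute-phase serum amyloid A made by macrophages, rose by 2.90 ± 0.14 (7.48-fold). Its LPS level was 856.2 in IL-6-/-, against 308.2 and 310.8 in IL-10-/- and 363.8 and 309.5 in WT.

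**Figure D2:**
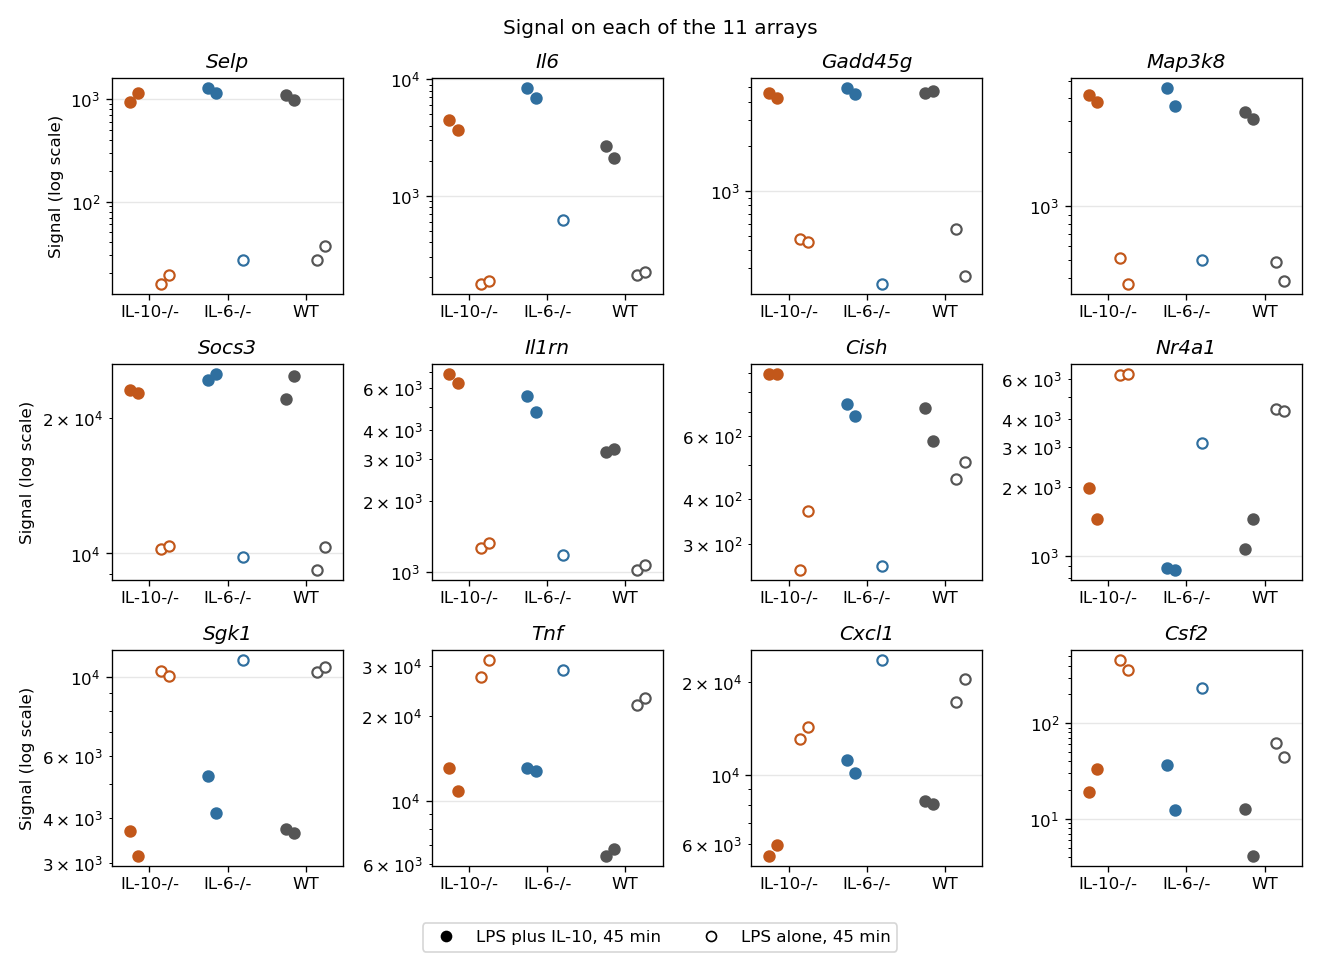
Signal of 12 genes (log scale, vertical axis) on each of the 11 arrays, 1 point per array, filled for LPS plus IL-10 and open for LPS alone, by genotype. In every panel and genotype the filled points lie on one side of the open ones, above for Selp, Il6, Gadd45g, Map3k8, Socs3, Il1rn and Cish and below for Nr4a1, Sgk1, Tnf, Cxcl1 and Csf2.

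Of 23 measured genes linked to STAT3 or described as IL-10 targets, 9 rose, 2 fell and 12 did not pass. Their median log2 change was 0.19, beside -0.01 over all probe sets tested. The shares of all probe sets tested that rose (0.912%) and fell (0.559%) apply beside this and every list count below. The list of STAT3-linked genes was drawn up with earlier results of these arrays known. Besides Selp and Gadd45g the risers were Socs3, Il1rn, Nfil3, Il4ra, Procr, Cebpd and Ddit4. In IL-10-/-, Socs3 measured 23042 and 22764 with IL-10 and 10242 and 10393 without it; in IL-6-/- it measured 24249 and 25019 with and 9829 without, and in WT 22046 and 24737 with and 9200 and 10318 without. Socs3, the feedback inhibitor of gp130 and other cytokine receptors, lay between 22046 and 25019 on the arrays with IL-10 and between 9200 and 10393 on those without; its change was 1.23 ± 0.07 on the log2 scale (2.35-fold, adjusted p = 1.2e-07). Il1rn encodes the antagonist that blocks the IL-1 receptor. LPS plus IL-10 gave Il1rn signals of 6885 and 6300 in IL-10-/-, against 1266 and 1327 with LPS alone, of 5549 and 4740 against 1183 in IL-6-/-, and of 3226 and 3303 against 1020 and 1070 in WT. All arrays with IL-10 lay above all LPS arrays, and the change was 1.98 ± 0.12 on the log2 scale (3.95-fold, adjusted p = 1.2e-07). Nfil3, a basic leucine zipper repressor, rose by 2.20 ± 0.16 (4.61-fold), and Il4ra, the signalling chain shared by the IL-4 and IL-13 receptors, by 1.77 ± 0.12 (3.41-fold). Procr, the protein C receptor, rose by 1.59 ± 0.13 and the transcription factor gene Cebpd by 1.41 ± 0.12. Ddit4, an inhibitor of mTOR complex 1, rose by 0.78 ± 0.16 (adjusted p = 0.0224), a call lost in 7 of the 11 fits that left out 1 array (highest adjusted p = 0.095), with the replicate number as a block (0.0653) and in the fit over all 16 groups of the series (0.286). The fallers were Dusp1, described below, and Tnfrsf1b, the second TNF receptor (-0.35 ± 0.08, adjusted p = 0.0468), which passed in none of the 11 fits without 1 array (0.0503 to 0.171). Stat3 did not pass (0.22 ± 0.09, adjusted p = 0.626), nor did a second probe set of Stat3 (0.42, 0.0678). Bcl3, an inhibitor of NF-kappaB family members, did not pass either (0.59 ± 0.17, 0.2). It passed without LPS plus IL-10 replicate 1 of IL-6-/- (0.0164) and with the replicate block (0.00178).

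Among SOCS, JAK and STAT genes, 4 of 19 rose, 0 fell and 15 did not pass (median 0.09). The 4 are inhibitors of cytokine signalling: Socs3, Ptpn1, Cish and Socs1. Ptpn1, a phosphatase that acts on JAK kinases, rose by 0.93 ± 0.12 (adjusted p = 0.000277). For Cish, the signals in IL-10-/- were 894.6 and 893.1 with IL-10 and 254.4 and 371.2 with LPS alone, those in IL-6-/- 740.2 and 682.2 with IL-10 and 260.2 with LPS alone, and those in WT 719.6 and 584 with IL-10 and 457.1 and 508.8 with LPS alone. Cish, another SOCS family member, separated in each genotype but over a narrower gap in WT; its common change was 0.99 ± 0.18 on the log2 scale (1.99-fold, adjusted p = 0.00712), and it did not pass without the lone IL-6-/- LPS array (0.0714). Socs1 rose by 0.85 ± 0.17 (adjusted p = 0.0138), a call lost without any 1 of 3 arrays, LPS plus IL-10 replicate 2 of WT (0.0528), LPS replicate 2 of IL-10-/- (0.0513) and LPS plus IL-10 replicate 2 of IL-10-/- (0.0579), and in the fit over all 16 groups (0.125). Jak2 gave 0.50 ± 0.15 (adjusted p = 0.19) and Jak1 0.03 ± 0.15 (1). Of 12 cytokine receptor genes, which include those for IL-4, IL-13 and the interferons beside the IL-10 and IL-6 families, Il4ra alone passed and 11 did not. Il10ra, the ligand-binding chain for the added cytokine, was present on all arrays, at 999.3 to 1260 with IL-10 and 1257 to 1428 with LPS alone in IL-10-/-, at 1031 and 1234 against 1297 in IL-6-/-, and at 768.8 and 1056 against 1195 and 1384 in WT. Its change was -0.32 ± 0.12 (adjusted p = 0.517), that of Il10rb -0.10 ± 0.09 (1) and that of Il6st, which encodes gp130, 0.40 ± 0.14 (0.382).

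STAT dimers bind palindromes of the form TTCNNNGAA, and promoter sequence is shown here to let the reader see the motif in genes that rose. Each window runs from 250 bases before to 50 bases after an annotated start in RefSeq on GRCm38.p6, and the palindrome reads the same on both strands. It occurs in 8.3% of 32841 windows and in at least 1 window of 8.3% of 4881 tested genes with a promoter in the table. Among the genes that rose, 11 of 54 with a promoter hold it (20.4%), and among those that fell 4 of 31 (12.9%). These shares are descriptions, with no test. Of the 10 largest rises, leaving out Map3k8, whose window was not used here, Sphk1 alone holds it, 41 bases before the start used here. Socs3 is shown as one of the genes followed throughout; of the others with a window, Bcl3, Il4ra, Il1rn and Stat3 do not hold it. Irf1 and Cish were added after the motif had been looked up. The motif is in capitals, with each window written in the direction of transcription.
Sphk1, chr11:116531587-116531886, plus strand: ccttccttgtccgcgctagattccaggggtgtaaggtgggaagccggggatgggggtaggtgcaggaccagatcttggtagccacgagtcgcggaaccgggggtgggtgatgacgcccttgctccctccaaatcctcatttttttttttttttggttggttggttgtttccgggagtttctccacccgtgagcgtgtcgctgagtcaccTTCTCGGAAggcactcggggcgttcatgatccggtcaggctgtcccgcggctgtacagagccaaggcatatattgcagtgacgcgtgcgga
Socs3, chr11:117969317-117969616, minus strand: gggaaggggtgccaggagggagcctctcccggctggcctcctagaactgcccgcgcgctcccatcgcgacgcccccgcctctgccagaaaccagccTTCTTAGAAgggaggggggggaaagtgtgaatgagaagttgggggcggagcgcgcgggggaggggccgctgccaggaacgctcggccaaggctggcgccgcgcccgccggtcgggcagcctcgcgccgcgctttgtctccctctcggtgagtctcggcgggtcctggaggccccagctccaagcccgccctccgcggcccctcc
Irf1, chr11:53769764-53770063, plus strand: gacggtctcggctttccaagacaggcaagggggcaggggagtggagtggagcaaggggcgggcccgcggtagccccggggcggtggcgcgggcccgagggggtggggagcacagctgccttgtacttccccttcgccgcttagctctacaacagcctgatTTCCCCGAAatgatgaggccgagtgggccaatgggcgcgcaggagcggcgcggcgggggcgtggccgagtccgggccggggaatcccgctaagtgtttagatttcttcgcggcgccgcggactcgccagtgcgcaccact
Cish, chr9:107296409-107296708, plus strand: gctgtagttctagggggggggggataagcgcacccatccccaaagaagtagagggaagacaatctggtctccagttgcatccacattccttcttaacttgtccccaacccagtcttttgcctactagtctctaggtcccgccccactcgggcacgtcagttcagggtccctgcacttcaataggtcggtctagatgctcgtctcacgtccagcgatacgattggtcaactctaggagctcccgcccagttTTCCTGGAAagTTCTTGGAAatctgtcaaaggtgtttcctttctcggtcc
In Cish the motif occurs at the start itself and again 11 bases after it. The other genes that rose and hold it are Emp1, Fgl2, Gbp7, Irgm2, Myd88, Plscr1 and Tnfrsf1a, and those that fell are Bcl6, Sgk1, Tgif1 and Tnfrsf1b. In Gbp7 both TTCCAGGAA and TTCTCAGAA lie in the window, and Bcl6 holds 4 copies over 2 windows. No match in a window of this size says nothing about a more distant site.

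Sphk1, whose kinase makes sphingosine 1-phosphate, was low on every LPS array. The Sphk1 signal was 439.3 and 471.8 with IL-10 against 20.4 and 67.7 with LPS alone in IL-10-/-, 353.5 and 306.5 against 16.3 in IL-6-/-, and 211.5 and 321.9 against 20.9 and 32.4 in WT. The groups were far apart in all genotypes, and the common change was 2.32 ± 0.21 on the log2 scale (4.98-fold, adjusted p = 7.98e-06), or 9.38-fold with 10 and 2.38-fold with 200 added before the logarithm.

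Of 33 interferon-linked genes, 5 rose, 0 fell and 28 did not pass (median 0.18). Over all probe sets tested, 0.912% rose and 0.559% fell. The risers were Cxcl10 and Cxcl9, chemokines for T cells, the transcription factor gene Irf1, and the guanylate-binding GTPase genes Gbp2 and Gbp3. In IL-10-/-, Cxcl10 measured 3360 and 2518 with IL-10 and 571 and 408.8 without it; in IL-6-/- it measured 2275 and 1429 with and 454.5 without, and in WT 1568 and 1924 with and 347.9 and 307.6 without. Every array with IL-10 lay above every LPS array, with a change of 2.24 ± 0.16 on the log2 scale (4.72-fold, adjusted p = 5.3e-07). LPS plus IL-10 gave Cxcl9 signals of 403.1 and 371.6 in IL-10-/-, against 26.2 and 12.7 with LPS alone, of 298.7 and 276.6 against 4.2 in IL-6-/-, and of 199.6 and 179.8 against 8 and 17.7 in WT. Cxcl9 stayed between 4.2 and 26.2 with LPS alone; its change was 2.38 ± 0.21 on the log2 scale (5.22-fold, adjusted p = 7.7e-06), with a size that again depends on the added constant (13-fold with 10, 2.25-fold with 200). Irf1 rose to between 10875 and 13162 with IL-10, against 5363 to 7255 with LPS alone (0.94 ± 0.09, adjusted p = 9.89e-06). Gbp3 (0.96 ± 0.17, adjusted p = 0.0052) did not pass without the lone IL-6-/- LPS array (0.0576) or in the fit over 16 groups (0.0841). Gbp2 (0.85 ± 0.17, 0.0155) was no longer called in 5 of the 11 leave-one-out fits (highest 0.16) and, narrowly, in the fit over 16 groups (0.0503). Chosen after their values were seen, Gbp7 rose by 1.39 ± 0.15 (adjusted p = 6.76e-05), the phospholipid scramblase gene Plscr1 by 1.64 ± 0.11 (4.68e-07), and the immunity-related GTPase gene Irgm2 by 0.75 ± 0.15 (0.0151, but 0.125 without the lone IL-6-/- LPS array, 0.0569 without LPS replicate 1 of IL-10-/-, 0.0656 without its LPS plus IL-10 replicate 2, and 0.141 in the fit over 16 groups).

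Inflammatory cytokine genes moved both ways. Of 11 measured, Il6 rose, Tnf, Csf2 and Il1a fell and 7 did not pass (median -0.07). For Tnf, the signals in IL-10-/- were 13091 and 10849 with IL-10 and 27412 and 31563 with LPS alone, those in IL-6-/- 13114 and 12788 with IL-10 and 29075 with LPS alone, and those in WT 6410 and 6782 with IL-10 and 21922 and 23219 with LPS alone. Tnf, which encodes the cytokine TNF, lay well below its LPS level in all genotypes, and the common change was -1.44 ± 0.10 on the log2 scale (a fold of 0.368, adjusted p = 6.35e-07). It remained far above 323, the mean of the resting arrays, whose labels give no genotype. The Csf2 signal was 19.1 and 33 with IL-10 against 456.8 and 363.1 with LPS alone in IL-10-/-, 36.5 and 12.3 against 231.2 in IL-6-/-, and 12.8 and 4.1 against 61.7 and 44.1 in WT. Csf2, which encodes the growth factor GM-CSF, was low on all arrays with IL-10. Its LPS level was highest in IL-10-/-, intermediate in IL-6-/- and close to the resting mean of 43.9 in WT. The common change of Csf2 was -1.76 ± 0.31 on the log2 scale (a fold of 0.295, adjusted p = 0.00654). It did not pass without the lone IL-6-/- LPS array (0.0644), and the fold was 0.15 with 10 and 0.543 with 200 added. Il1a fell by 0.85 ± 0.13 on the log2 scale (adjusted p = 0.00123), whereas Il1b gave -0.22 ± 0.09 (0.624). Il12b, encoding the p40 subunit of IL-12, stayed between 23.2 and 158.4 with IL-10 and between 34.7 and 221.1 with LPS alone, and did not pass (adjusted p = 1). Il12a was not tested, since its signal stayed too low.

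Of 17 chemokine genes, 4 rose (Cxcl10, Cxcl9, Ccl4 and Ccl7), 2 fell (Cxcl1 and Cxcl2) and 11 did not pass (median 0.06). The fallers attract neutrophils. In IL-10-/-, Cxcl1 measured 5496 and 5968 with IL-10 and 13128 and 14314 without it; in IL-6-/- it measured 11172 and 10167 with and 23513 without, and in WT 8254 and 8063 with and 17267 and 20509 without. Cxcl1 separated in each genotype, and its change was -1.20 ± 0.08 on the log2 scale (a fold of 0.434, adjusted p = 2.48e-07). Cxcl2 fell by 0.55 ± 0.09 (adjusted p = 0.00321). Its change was of like size in the fit over 16 groups (-0.57, 0.436) and without an intensity trend in the variance (-0.55, 0.0568), and passed in neither. LPS plus IL-10 gave Ccl4 signals of 8090 and 11209 in IL-10-/-, against 2961 and 4288 with LPS alone, of 7600 and 7842 against 3486 in IL-6-/-, and of 4245 and 5702 against 1793 and 2004 in WT. Ccl4, the monocyte and T cell chemokine MIP-1β, rose by 1.32 ± 0.12 (2.49-fold, adjusted p = 1.29e-05), and Ccl7 by 0.70 ± 0.12 (0.00488); in the fit over 16 groups they gave 0.103 and 0.0717.

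Inflammatory enzymes, receptors and costimulatory genes counted 3 risers, 3 fallers and 14 others of 20 (median -0.07). For Acod1, the signals in IL-10-/- were 716.3 and 768.1 with IL-10 and 1843 and 2415 with LPS alone, those in IL-6-/- 1067 and 720.8 with IL-10 and 2011 with LPS alone, and those in WT 408.3 and 270.6 with IL-10 and 1495 and 1637 with LPS alone. Acod1, the enzyme that makes itaconate, was lowered in each genotype, by -1.61 ± 0.17 on the log2 scale (a fold of 0.328, adjusted p = 4.21e-05) in common. Tnfrsf1b is the second faller, and the dendritic cell surface gene Cd83 fell by 0.56 ± 0.09 (adjusted p = 0.00285, 0.241 in the fit over 16 groups). Besides Il1rn, the costimulatory receptor gene Cd40 rose by 0.79 ± 0.15 (0.00931, but 0.0822 without the lone IL-6-/- LPS array), and Tnfrsf1a, the first TNF receptor, by 0.55 ± 0.12 (0.0354, lost in 8 of the 11 fits without 1 array, up to 0.309, and 0.0598 with the replicate block). Ptgs2, the inducible prostaglandin synthase, did not pass (0.26 ± 0.16, adjusted p = 0.943). Its log2 change was 0.8 in IL-10-/-, 0.07 in IL-6-/- and -0.16 in WT, and the test of the genotype difference did not pass.

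Immediate early genes, a class known for induction without new protein synthesis, had 5 fallers, 3 risers and 27 others of 35 (median -0.06). Nr4a1, an orphan nuclear receptor, had the largest common fall with 50 added before the logarithm; with 10 added that of Csf2 was larger (-2.74, against -1.84 for Nr4a1). The Nr4a1 signal was 1993 and 1447 with IL-10 against 6256 and 6289 with LPS alone in IL-10-/-, 887.2 and 867.2 against 3143 in IL-6-/-, and 1074 and 1456 against 4414 and 4316 in WT. The LPS level varied between genotypes, and every array with IL-10 lay below the lowest LPS array, for a common change of -1.80 ± 0.11 on the log2 scale (a fold of 0.287, adjusted p = 1.2e-07). In IL-10-/-, Sgk1 measured 3692 and 3139 with IL-10 and 10383 and 10020 without it; in IL-6-/- it measured 5250 and 4129 with and 11124 without, and in WT 3737 and 3641 with and 10288 and 10643 without. Sgk1, a kinase related to AKT, separated in each genotype, by -1.46 ± 0.09 on the log2 scale (a fold of 0.364, adjusted p = 2.13e-07) in common. Fos, a subunit of AP-1, fell by 0.61 ± 0.08 (adjusted p = 0.000223; 0.0715 in the fit over 16 groups) and the zinc finger gene Klf10 by 0.80 ± 0.11 (0.000692). Phlda1 fell by 0.59 ± 0.12 (0.026), a call lost in 6 of the 11 fits without 1 array (up to 0.21) and with the replicate block (0.0517). Egr1 did not pass (-0.28 ± 0.11, 0.526). The risers were Gadd45g, its relative Gadd45a (0.53 ± 0.09, adjusted p = 0.00473; 1 in the fit over 16 groups) and Noct, a circadian-regulated phosphatase (0.80 ± 0.12, 0.00104; 0.225 in that fit). Other probe sets of Noct did not pass, at -0.22 (adjusted p = 0.972) and 0.49 (0.577).

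The remaining large falls were those of Ifrd1, a transcriptional coregulator, Cited2, which binds the coactivators CBP and p300, the small GTPase gene Rhob and Ccng2, an unconventional cyclin. LPS plus IL-10 gave Ifrd1 signals of 1312 and 1231 in IL-10-/-, against 4440 and 3110 with LPS alone, of 1091 and 784.4 against 2515 in IL-6-/-, and of 656 and 842.1 against 2694 and 2508 in WT. All arrays with IL-10 lay below all LPS arrays, and the change was -1.57 ± 0.13 on the log2 scale (a fold of 0.337, adjusted p = 3.19e-06). For Rhob, the signals in IL-10-/- were 3480 and 2638 with IL-10 and 6931 and 8131 with LPS alone, those in IL-6-/- 3518 and 3008 with IL-10 and 9464 with LPS alone, and those in WT 2152 and 2380 with IL-10 and 6898 and 4976 with LPS alone. The same held for Rhob, at -1.37 ± 0.11 on the log2 scale (a fold of 0.386, adjusted p = 3.08e-06). Cited2 fell by 1.39 ± 0.10 and Ccng2 by 1.12 ± 0.11. Tgif1, a homeobox repressor in TGF-β signalling, and Bcl6, a zinc finger repressor, chosen after their values were seen, fell by 1.04 ± 0.11 and 0.83 ± 0.11; Bcl6 gave an adjusted p of 0.0613 in the fit over 16 groups.

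Of 24 NF-kappaB components and feedback genes, Map3k8 rose, Nfkbia fell and 22 did not pass (median -0.15). Over all probe sets tested, 1.47% passed. Nfkbia, the inhibitor IκBα, fell by 0.32 ± 0.07 (adjusted p = 0.0468) and lost its call in each of the 11 fits without 1 array (0.051 to 0.155). A second probe set of Nfkbia gave -0.09 (adjusted p = 1). Of 9 MAP kinase phosphatases and feedback genes, Map3k8 and Errfi1, an inhibitor of the EGF receptor, rose, Dusp1 fell and 6 did not pass (median -0.09). Errfi1 rose by 0.72 ± 0.08 (adjusted p = 8.92e-05). The Dusp1 signal was 19310 and 18389 with IL-10 against 24775 and 25027 with LPS alone in IL-10-/-, 20081 and 17281 against 26103 in IL-6-/-, and 14441 and 15130 against 21756 and 22306 in WT. Dusp1, which switches off p38 and JNK, was lower with IL-10 by a small margin on every array, at -0.49 ± 0.07 on the log2 scale (a fold of 0.713, adjusted p = 0.00132), with an adjusted p of 0.345 in the fit over 16 groups and 0.0504 without the intensity trend. None of 8 mRNA decay and anti-proliferative factors passed (median -0.05).

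The metal-binding metallothionein genes Mt1 and Mt2 rose. In IL-10-/-, Mt2 measured 29915 and 34733 with IL-10 and 6829 and 8913 without it; in IL-6-/- it measured 27253 and 30515 with and 7688 without, and in WT 31820 and 28532 with and 6522 and 7013 without. Mt2 rose by 2.05 ± 0.09 (4.13-fold) and Mt1 by 1.66 ± 0.07, with changes in single genotypes of 1.65 in IL-10-/-, 1.66 in IL-6-/- and 1.67 in WT for Mt1 and of 2.04, 1.90 and 2.15 for Mt2. Of 22 heat shock and stress genes they were the only risers, and Hspa1a, an inducible HSP70 chaperone, was the only faller (-0.89 ± 0.15, adjusted p = 0.00528, but 0.0593 without the lone IL-6-/- LPS array); 19 did not pass (median -0.03). Of 15 sterol genes Ch25h, which makes 25-hydroxycholesterol, rose by 1.59 ± 0.13 (adjusted p = 2.72e-06) and 14 did not pass (median -0.11). Of 19 glycolysis and hypoxia genes Ddit4 alone passed and 18 did not (median 0.10). Of 26 macrophage identity genes Fcgr2b, the inhibitory Fc receptor, rose by 0.82 ± 0.10 (0.000138) and 25 did not pass (median -0.08). Of 11 MHC class II, 8 neutrophil, 5 lymphocyte, 14 stromal, 6 erythroid and mast cell and 6 dendritic cell genes, 0 passed, with medians of -0.02, -0.05, 0.14, 0.03, -0.20 and 0.00.

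**Figure D3:**
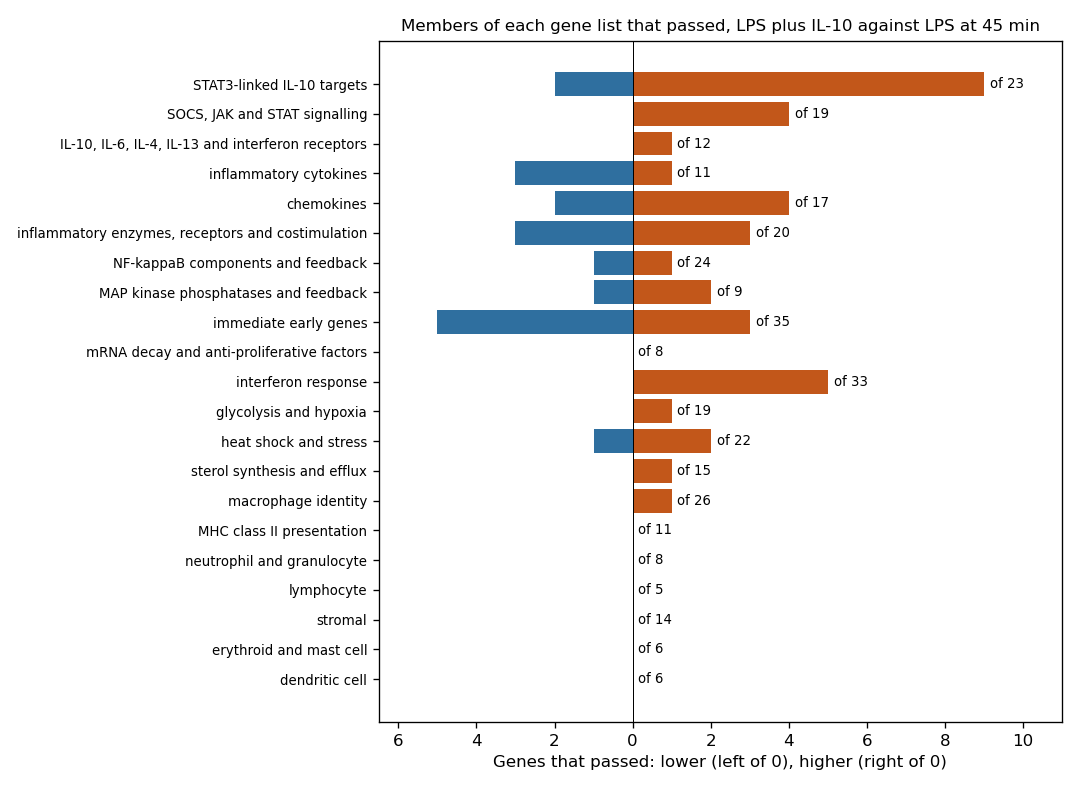
Number of genes in each list that rose (bars right of 0) or fell (bars left of 0) with IL-10 at 45 min in the common response, with the number tested beside each bar. STAT3-linked genes had 9 risers of 23, interferon genes 5 risers of 33, and immediate early genes 5 fallers of 35. Over all probe sets tested, 0.912% rose and 0.559% fell.

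Other genes that passed, chosen after their values were seen, included transcription factors and receptors. Bach1, a repressor of haem-responsive genes, rose by 1.18 ± 0.14 (adjusted p = 0.000193), Ahr, the aryl hydrocarbon receptor, by 0.99 ± 0.16 (0.00306), the homeobox gene Hlx by 0.92 ± 0.12 (0.000251) and Bhlhe40 by 0.80 ± 0.15 (0.0125, but 0.0926 without the lone IL-6-/- LPS array). Il17ra, a chain of the IL-17 receptor, rose by 1.44 ± 0.12 (3.38e-06), Ptger4, a receptor for prostaglandin E2, by 1.23 ± 0.10 (3.45e-06, but 0.13 in the fit over 16 groups) and Myd88, the adaptor of TLR4, by 0.78 ± 0.09 (0.000117). Cdkn2d, a cell cycle inhibitor, rose by 1.29 ± 0.13 (2.88e-05). Hmox1, the haem oxygenase gene that Bach1 represses, spread from 3956 to 9073 with IL-10 and from 6812 to 10866 with LPS alone, and did not pass (-0.16 ± 0.18, adjusted p = 1).

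The next question was whether the response differed between genotypes. A moderated F test of the difference, from a fit over the 16 groups and 32 arrays of the series, passed for 0 of 8224 probe sets (0.00%), with 160 (1.95%) at an unadjusted p under 0.05 and a smallest adjusted p of 1. Each pair of genotypes likewise gave 0 calls: IL-10-/- minus WT had 217 probe sets at an unadjusted p under 0.05, IL-6-/- minus WT 150 and IL-6-/- minus IL-10-/- 137. The precision was limited: over the 121 probe sets of the common response, the median half-width of the 95% interval of the difference was 0.834 for IL-10-/- minus WT and 0.933 for both pairs with IL-6-/-. A lack of calls does not show that the genotypes responded alike.

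Tested within genotypes in the same fit, the response passed for 45 probe sets in IL-10-/- (0.547%), 27 in IL-6-/- (0.328%) and 33 in WT (0.401%). In IL-10-/- 34 were higher (0.413%) and 11 lower (0.134%), in IL-6-/- 21 (0.255%) and 6 (0.0730%), and in WT 23 (0.280%) and 10 (0.122%). The 21 probe sets that passed in all 3 made up 46.7% of the IL-10-/- calls, 77.8% of the IL-6-/- calls and 63.6% of the WT calls. They stand for Selp, Il6, Gadd45g, Map3k8, Mt1, Mt2, Il1rn, Il4ra, Nfil3, Cxcl9, Sphk1, Ch25h, Procr, Cebpd, Midn and Rcan1 among the risers and Nr4a1, Sgk1, Ifrd1, Rhob and Ccng2 among the fallers. A further 10 passed in 2 genotypes and 22 in 1, of which 14 in IL-10-/-, 2 in IL-6-/- and 6 in WT. Of the 53 that passed in any genotype, 48 also passed in common, and 1, a probe set of Auh with another of higher signal, had opposite signs in different genotypes. The counts were smaller without any 1 array, at 25 to 29 in IL-10-/-, 11 to 14 in IL-6-/- and 17 to 23 in WT. IL-6-/- had 1 LPS array, so its changes carry a larger standard error. A call in one genotype and not in another is not a difference between them.

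**Figure D4:**
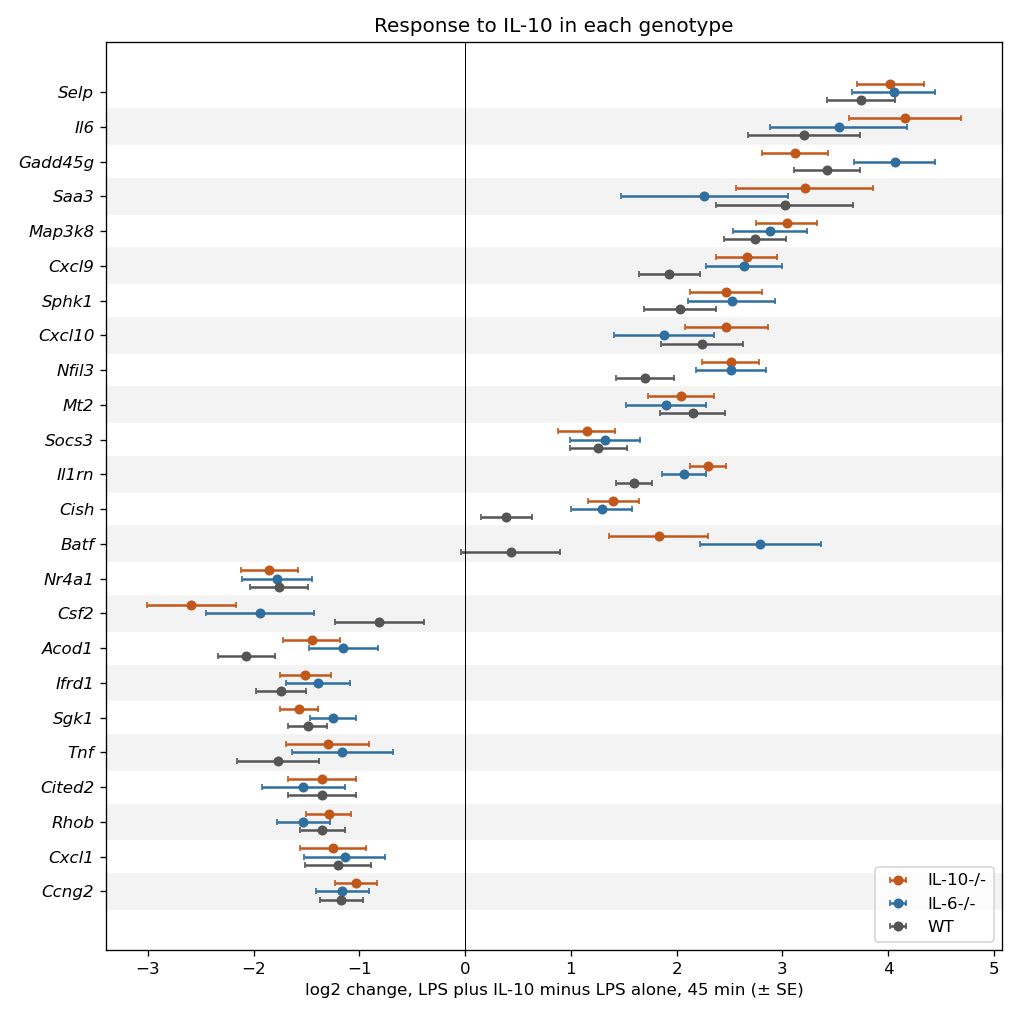
Log2 change with IL-10 at 45 min in IL-10-/-, IL-6-/- and WT (± SE from the fit over 16 groups) for the 10 largest rises, the 10 largest falls and Socs3, Il1rn, Cish and Batf. WT lies nearer to 0 for Csf2, Batf, Cish and Il1rn, and farther from 0 for Acod1 and Tnf. The Csf2 signals in WT were low, and the constant added before the logarithm shrinks the change at such signals.

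The 5 genes that ranked first by the F test were Eef1b2, Fxyd1, Tmem70, Stat5b and Rac3. None passed (adjusted p = 1 for each), and none was among the genes of the common response. The first of them, Eef1b2, encodes a translation elongation factor subunit. LPS plus IL-10 gave Eef1b2 signals of 93.9 and 100.9 in IL-10-/-, against 358.6 and 200.2 with LPS alone, of 245.9 and 200.3 against 81.3 in IL-6-/-, and of 424.7 and 321.4 against 74.8 and 125.7 in WT. It was lower with IL-10 in IL-10-/- and higher in the other genotypes, at signals between 74.8 and 424.7. The others did not share this order: Fxyd1, for example, gave log2 changes of 1.42 in IL-10-/-, -0.93 in IL-6-/- and -1.31 in WT. Of the 121 probe sets, 5 lay below 0.05 before adjustment (4.13%), those of Batf, Cish, Csf2, Il1rn and Mcoln2, and each had an adjusted p of 1.

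In each of these 5 genes the change was smallest in WT. Some other genes of the common response changed most in WT. Acod1 gave -2.07 in WT, against -1.45 in IL-10-/- and -1.15 in IL-6-/-, and Tnf -1.77 against -1.3 and -1.16. The genotype difference did not pass for these genes either. For Batf, the signals in IL-10-/- were 234.8 and 364.5 with IL-10 and 32.3 and 63.7 with LPS alone, those in IL-6-/- 606 and 481.8 with IL-10 and 35.5 with LPS alone, and those in WT 98.4 and 120.9 with IL-10 and 55 and 83.8 with LPS alone. Batf, an AP-1 family factor, gave log2 changes of 1.83 in IL-10-/-, 2.79 in IL-6-/- and 0.43 in WT. Its common change (1.54 ± 0.32, adjusted p = 0.0225) was lost in 7 of the 11 fits without 1 array (up to 0.173) and with the replicate block (0.0755), and its fold ran from 1.82 with 200 to 4.11 with 10 added before the logarithm. Cish gave 1.40 in IL-10-/-, 1.29 in IL-6-/- and 0.39 in WT, and its LPS level differed too, at 254.4 and 371.2 in IL-10-/- and 260.2 in IL-6-/-, against 457.1 and 508.8 in WT. The difference of the Cish change between IL-10-/- and WT was 1.01 (95% interval 0.32 to 1.70). This interval and those of Il1rn and Csf2 below are not adjusted for the number of probe sets tested. Nor do they allow for the choice of these genes by their small unadjusted p. For Il1rn, with LPS levels between 1020 and 1327 in all genotypes, the changes were 2.30, 2.07 and 1.60 in IL-10-/-, IL-6-/- and WT, and the difference between IL-10-/- and WT was 0.70 (95% interval 0.20 to 1.21). For Csf2 that difference was -1.78 (95% interval -3.01 to -0.55). In WT its signals were 61.7 and 44.1 with LPS alone and 12.8 and 4.1 with IL-10, all under the signal limit of 200. At such signals the constant added before the logarithm shrinks the log2 change, which was -0.81 in WT. How much of the Csf2 difference between genotypes depends on that constant was not tested. Mcoln2, an endolysosomal channel gene, gave 1.23, 0.91 and 0.48 in IL-10-/-, IL-6-/- and WT.

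A further 3 genes passed in a single genotype and not in common. Ednrb, the endothelin B receptor gene, rose in IL-10-/- (1.67, adjusted p = 0.017), at 311 and 324.5 with IL-10 against 93.7 and 43 with LPS alone, and gave 0.75 in IL-6-/- and 0.33 in WT. Txnip, a regulator of thioredoxin, fell in IL-10-/- (-0.93, 0.0422), with -0.64 in IL-6-/- and -0.16 in WT. A second probe set of Txnip gave a common change of -0.02, against -0.57 for the one used here. Nr1h3, the nuclear receptor LXRα, fell in WT (-1.59, 0.0134), with -0.55 in IL-10-/- and -0.04 in IL-6-/-; its signal ran from 34.4 to 278.7 over the 11 arrays. The tests of the genotype difference did not pass for any of these (adjusted p = 1).

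Both cytokines signal through STAT3, and the series also holds LPS plus IL-6 (2 ng/ml) at 45 min, with 2 arrays per genotype. LPS plus IL-10 differed from LPS plus IL-6 at 31 of 8224 probe sets (0.377%; 14 higher, 0.170%, and 17 lower, 0.207%), genotype as a block, 28 of them the leading probe set of a gene. The doses are those chosen by the study and no other was used, so a difference between cytokines and a difference in dose cannot be told apart. Without an intensity trend 10 probe sets passed, and in the fit over 16 groups 18. The count was 17 without LPS plus IL-6 replicate 1 of IL-10-/-, 18 without LPS plus IL-10 replicate 1 of WT, 19 without LPS plus IL-6 replicate 2 of IL-6-/- and 20 without LPS plus IL-10 replicate 2 of IL-10-/-, and between 23 and 28 without any other array.

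Gadd45g differed most among the risers. It measured 4265 and 4567 with IL-10 against 1482 and 1516 with IL-6 in IL-10-/-, 4528 and 4930 against 1273 and 1523 in IL-6-/-, and 4571 and 4713 against 1090 and 1331 in WT. Both IL-10 arrays exceeded both IL-6 arrays in each genotype (1.72 ± 0.09, adjusted p = 1.43e-07). Il6 was higher with IL-10 than with IL-6 by 1.44 ± 0.24 (0.0153), Il1rn by 0.96 ± 0.16 (0.0153), Plscr1 by 0.84 ± 0.13 (0.012) and Procr by 0.78 ± 0.13 (0.012). Socs3 was higher by 0.35 ± 0.06 (0.0255). Nfil3, Il4ra and Sphk1 did not pass (0.13, 0.29 and 0.28, adjusted p 0.996, 0.398 and 0.975).

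Among the fallers, Nr4a1 was lower with IL-10 than with IL-6 by 1.25 ± 0.13 on the log2 scale (adjusted p = 0.000404). It measured 1447 and 1993 with IL-10 against 3074 and 4233 with IL-6 in IL-10-/-, 867.2 and 887.2 against 2048 and 2623 in IL-6-/-, and 1074 and 1456 against 2744 and 3822 in WT. Ifrd1 (-1.17 ± 0.14, adjusted p = 0.000597), Rhob (-1.05 ± 0.09, 7.43e-05), Tnf (-1.04 ± 0.14, 0.00211), Cited2 (-0.96 ± 0.11, 0.000593), Sgk1 (-0.87 ± 0.09, 0.000526) and Cxcl1 (-0.73 ± 0.08, 0.000597) were likewise lower with IL-10. Against LPS alone, which shares its arrays with the IL-10 comparison, added IL-6 gave 44 higher probe sets and 1 lower (0.535% and 0.0122%). For Tnf its change was -0.37 ± 0.24 (adjusted p = 1), for Cxcl1 -0.47 ± 0.19 (0.944) and for Sgk1 -0.57 ± 0.11 (0.0117).

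**Figure D5:**
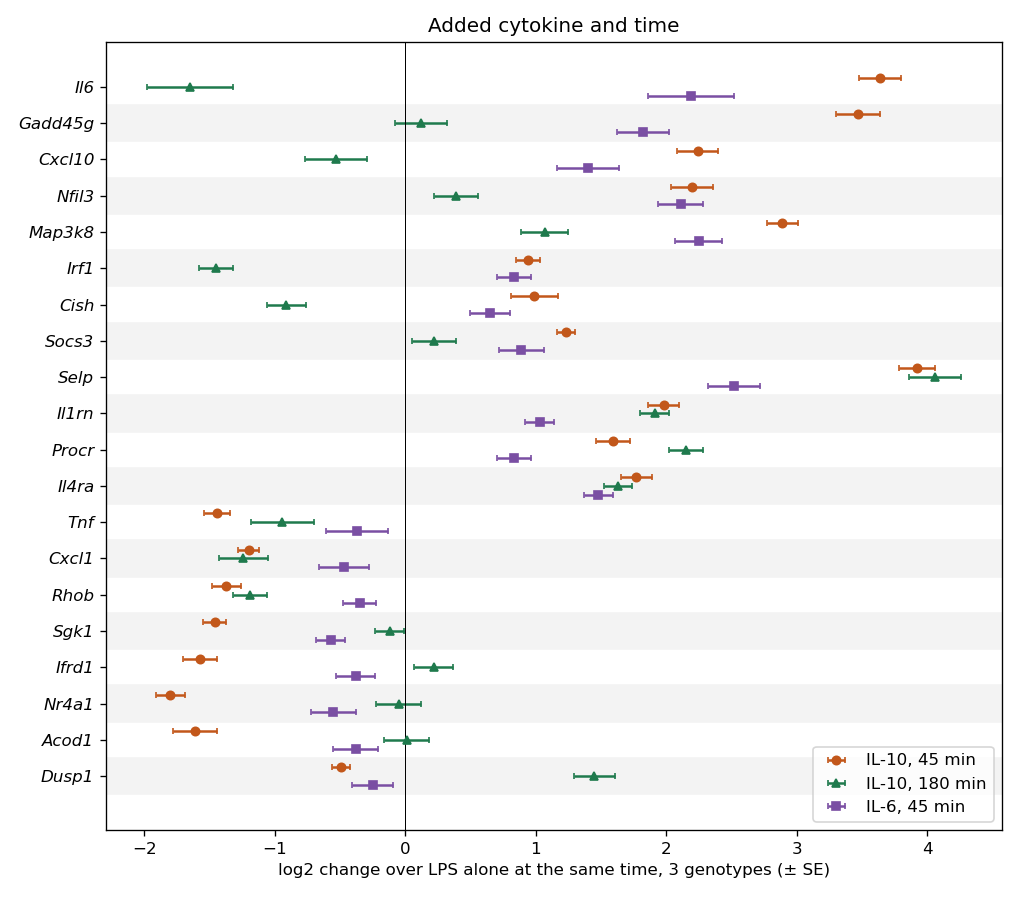
Log2 change over LPS alone at the same time (± SE), common to or averaged over the 3 genotypes, for IL-10 at 45 min (circles), IL-10 at 180 min (triangles) and IL-6 at 45 min (squares). Il6, Gadd45g, Irf1 and Cish lie right of 0 at 45 min with IL-10 and near or left of 0 at 180 min, while Selp, Il1rn, Procr and Il4ra lie right of 0 throughout. The 2 comparisons at 45 min share their LPS arrays.

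IL-10 was also given for 180 min, and the change there minus the change at 45 min, averaged over the genotypes, passed at 97 of 8224 probe sets (1.18%; 46 higher, 0.559%, and 51 lower, 0.620%). At 180 min itself, 314 probe sets passed in the fit over 16 groups (3.82%), 168 higher (2.04%) and 146 lower (1.78%). LPS alone in IL-6-/- rests on a single array at 180 min too, so its values there are single signals and not means. Il6 turned over: its mean with IL-10 at 180 min was 3890 in IL-10-/-, 433.9 in IL-6-/- and 1615 in WT, against 24170, 1014 and 3606 with LPS alone, and the 180 min change minus that at 45 min was -5.27 ± 0.47 (adjusted p = 1.23e-07). Gadd45g was back near its LPS level at 180 min, with means of 318.9 against 193 in IL-10-/-, 217 against 197.4 in IL-6-/- and 294.2 against 376.7 in WT (-3.42 ± 0.28, 2.32e-08). Irf1 rose at 45 min and fell by 1.45 at 180 min (difference -2.37 ± 0.18, 7.75e-09). For Selp the difference did not pass (0.12 ± 0.28, adjusted p = 0.999), with means at 180 min of 7956 against 35.2 in IL-10-/-, 12450 against 1553 in IL-6-/- and 10690 against 1648 in WT. Nor did it for Il1rn (-0.08 ± 0.15) or Tnf (0.47 ± 0.34, both 0.999). These averages cover unlike genotypes. The Il1rn change at 180 min was 3.47 in IL-10-/-, 1.19 in IL-6-/- and 1.06 in WT, and was above that at 45 min in IL-10-/- (2.30) and below it in IL-6-/- (2.07) and WT (1.60). The Tnf change at 180 min was -1.84 in IL-10-/-, -0.66 in IL-6-/- and -0.32 in WT, beside -1.30, -1.16 and -1.77 at 45 min, and that of Selp was 6.55, 2.96 and 2.66, beside 4.02, 4.05 and 3.74. Whether the genotypes differ in this was not tested.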

How the data were processed

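Total RNA was hybridised to Affymetrix MG-U74Av2 arrays. The deposited values are the intensity (signal) of each probe set on a linear scale, made with MAS5 by the authors, per the submitters' processing notes; the version is not given in the sources used here. Their 2% trimmed means ran from 500.29 to 500.4, and no further scaling was applied. Control probe sets (66) were left out, and symbols came from the platform table (10855 probe sets with 1 symbol, 396 with several, 1237 not listed); where a gene had several probe sets, the one of highest mean stands for it. Of 24 other probe sets of named genes, 21 were tested, 6 passed and 0 passed in the opposite direction. R 4.3.3 and limma 3.58.1 (lmFit, eBayes with an intensity trend) fitted log2(signal + 50). The common response used 11 arrays with genotype as a block (7 residual degrees of freedom). The responses within genotypes, their difference, the 180 min comparison and IL-6 against LPS alone used 1 mean per group. That fit covered 16 groups and 32 arrays (16 residual degrees of freedom). P-values are 2-sided.

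The arrays, the 21 gene lists and the tests were chosen with earlier results of these data known. Named genes are the 10 largest rises and 10 largest falls that passed and agreed in sign, the 3 largest of each direction within each genotype, the 5 smallest p-values of the genotype difference, up to 4 members of each list that passed, and 10 genes throughout (Il10, Il6, Socs3, Tnf, Il12b, Bcl3, Nfil3, Il4ra, Il1rn, Stat3); others are said to have been chosen after their values were seen, or are named to complete a count. The alternatives changed the added constant (10, 200), the signal limit (none, 500), the normalization (quantile), the variance trend (none), the arrays in the fit, and the block (the replicate number), or left out each array in turn. The procedure was tested on simulated data. With 1 or 2 arrays per group, their number limits the precision.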

Additional observations from a re-analysis of the deposited data

Results flagged for a closer look

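The response to IL-10 at 180 min differed from that at 45 min for 26 of the genes named here. The test was that of the difference averaged over the genotypes (limma, adjusted p under 0.05). Over all those tested, 97 probe sets (1.18%) passed. Most named genes were chosen for their change at 45 min, which this difference subtracts. That choice favours negative differences for risers and positive ones for fallers, so the 2 counts cannot be compared. The values below are the log2 change at 180 min minus that at 45 min; the part that the different LPS levels at the 2 times play in them was not tested.

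Negative differences were those of Il6 (-5.27), Gadd45g (-3.42), Cxcl10 (-2.73), Irf1 (-2.37), Irgm2 (-2.26), Ch25h (-2.01), Cish (-1.94), Nfil3 (-1.85), Map3k8 (-1.82), Plscr1 (-1.37), Mt2 (-1.16), Socs3 (-1.02) and Errfi1 (-0.97). Of these, Il6, Irf1, Cish and Irgm2 rose at 45 min and fell at 180 min (log2 changes at 180 min of -1.65, -1.45, -0.91 and -1.49). Some of the averages cover unlike genotypes. At 180 min Map3k8 gave 2.78 in IL-10-/-, 0.35 in IL-6-/- and 0.08 in WT, beside 3.04, 2.88 and 2.74 at 45 min. In the same order Mt2 gave 2.16, 0.1 and 0.35 at 180 min, and Socs3 0.87, -0.17 and -0.03. Irf1 was more even, at -1.5, -1.59 and -1.25. Whether the genotypes differ at 180 min was not tested.

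Positive differences were those of Bcl6 (2.24), Dusp1 (1.94), Ifrd1 (1.77), Nr4a1 (1.76), Acod1 (1.57), Fos (1.53), Tgif1 (1.50), Sgk1 (1.31), Phlda1 (1.27), Txnip (0.86), Klf10 (0.79), Stat3 (0.67) and Mcoln2 (0.67). Bcl6, Dusp1, Fos and Phlda1 fell at 45 min and rose at 180 min (1.41, 1.45, 0.94 and 0.67 at 180 min). The rises at 180 min were not even over genotypes. Dusp1 gave 3.49 in IL-10-/-, 0.52 in IL-6-/- and 0.35 in WT, and Bcl6 gave 3.02, 0.77 and 0.44. In the same order Mcoln2 gave 3.51, 0.62 and 0.52 at 180 min, beside 1.23, 0.91 and 0.48 at 45 min. The difference between genotypes at 180 min was not tested. Nr4a1 gave mean signals at 180 min of 421.7 in IL-10-/-, 183 in IL-6-/- and 233.2 in WT with IL-10. With LPS alone it gave 319.7, 266 (a single array) and 239.8, near the 279 of resting cells.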

How the results depend on the processing

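The common response passed at 85 to 132 probe sets under the 10 alternatives beside leaving out an array, against 121. Leaving out 1 array gave 84 (without the lone IL-6-/- LPS array) to 122 for the common response, 25 to 29 in IL-10-/-, 11 to 14 in IL-6-/-, 17 to 23 in WT, 17 to 28 for LPS plus IL-10 against LPS plus IL-6, 67 to 86 for 180 min minus 45 min, and 0 for the genotype difference in 10 fits. LPS plus IL-10 against LPS plus IL-6 also dropped to 10 probe sets without an intensity trend and to 18 in the fit over 16 groups. The genotype difference gave 0 calls by limma under each alternative, with 78 (signal limit of 500) to 295 (no limit) probe sets at an unadjusted p under 0.05. With the replicate number as a block, the common response gave 125 probe sets, 108 of them among the 121, IL-10-/- 50, IL-6-/- 21, WT 34, the genotype difference 0, the comparison with IL-6 36 and the difference between times 115. The numbers were not taken as pairs: the replicate differences of LPS plus IL-10 and LPS correlated at 0.144 in IL-10-/- and 0.0554 in WT. Of 71 named genes that passed, 45 kept the call in up to 21 fits, and none changed sign while passing. Leaving out the lone IL-6-/- LPS array was not possible for the IL-6-/- response. The pseudocount moved the fold by over 1.5 times for 8 named genes with low signals.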
